A study of Mus musculus with 8 samples.

Results

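The S100 genes counted here were S100a1, S100a4, S100a6, S100a8, S100a9, S100a10, S100a11 and S100a13, 8 of the 32285 genes in the feature list. They were chosen by name, and 9 further mouse S100 genes in the same list were counted beside them. The study sorted CD45+CD11b+Ly6Chi cells, which it calls monocytic myeloid-derived suppressor cells, from the blood and from subcutaneous MC38 tumors of mice, and profiled them by droplet single-cell RNA-seq. MC38 is a mouse colon carcinoma line. Tumors were left unirradiated (control) or received one dose of 20 Gy (IR), and cells were taken 3 days later.

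Each of the 4 libraries (tumor control, tumor IR, blood control and blood IR) mixed cells of 2 genotypes, both on the C57BL/6J background and both carrying the floxed Ythdf2 alleles. Cells labelled WT came from Ythdf2 fl/fl mice and bore hashtag antibody B0301. Cells labelled cKO came from Lyz-Cre Ythdf2 fl/fl mice, in which Cre is made in lysozyme-expressing myeloid cells, and bore hashtag B0302. The mice of a group were pooled, so each of the 8 groups is 1 pool without a replicate, and no test or p-value could be given. All intervals below are 95% intervals that cover counting error only, and differences between mice could not be measured.

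After filtering, the groups held 2460 cells labelled WT and 2126 labelled cKO from unirradiated tumors and 3042 and 3642 from irradiated ones. Blood gave 4803 and 3834 cells without IR and 4560 and 3776 with it. Gene UMIs (unique molecular identifiers, 1 per captured transcript) summed to between 19123572 and 24561576 per group. A cell held a median of 6118 to 8685.5 UMIs in the tumor groups and 2822 to 3163 in the blood groups. The 2 tumor matrices shared 11551 cell barcodes of 1000 UMIs or more, out of 12025 and 12075, whereas the other pairs of matrices shared 23 to 42. Of the 11551, 4566 carried hashtags only in the tumor control matrix and 6722 only in the tumor IR matrix, 261 in both and 2 in neither. The first of these held a median of 7898 UMIs in their hashtag-bearing matrix and 3597.5 in the tumor IR matrix, and the second 6607 and 3893.5 in the tumor control matrix, 45.5% and 59.0% at the median barcode. How the barcodes came to be shared, and whether UMIs of tumor control and tumor IR cells are mixed in them, was not tested. Cells were kept by their hashtags. Comparisons over all tumor cells and in neutrophil-like cells of tumor IR are also given without the shared barcodes, which leaves 212 WT and 136 cKO cells of tumor control and 219 and 249 of tumor IR. A barcode left in this way could still hold under 1000 UMIs in the other tumor matrix. The cells left were not matched to the others in UMIs or cell type. The label check did not go one way. Ythdf2 was higher in cells labelled cKO, with log2 ratios to cells labelled WT of 2.76 (tumor control), 2.74 (tumor IR), 3.20 (control blood) and 3.28 (irradiated animals' blood). Whether the counted 3′ end lies in the deleted stretch is not given in the sources used here. Lyz2, the lysozyme gene that carries Cre in Lyz-Cre mice, was lower in cells labelled cKO of these libraries (-6.31, -5.71, -6.64 and -7.30). The genotype names below are those of the labels.

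S100 proteins are small calcium-binding proteins that mostly work as dimers. S100a8 and S100a9 pair to form calprotectin, an abundant cytosolic protein of neutrophils that is released in inflammation, binds metal ions and signals through Tlr4 and Ager (RAGE). S100a4, S100a6, S100a10 and S100a11 act mostly inside cells, where S100a4 binds non-muscle myosin, S100a10 pairs with annexin A2 (Anxa2) and S100a11 binds annexin A1 (Anxa1). S100a13 takes part in the non-classical export of growth factors and cytokines, and S100a1 is best known from heart and muscle.

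All 8 genes lie on chromosome 3 (mm10, GENCODE annotation) in 2 groups. S100a1 (chr3:90511034-90514392, minus strand), S100a13 (chr3:90514435-90524581), S100a4 (chr3:90603771-90606045), S100a6 (chr3:90612882-90624181), S100a8 (chr3:90668978-90670035) and S100a9 (chr3:90692632-90695721, minus strand) form the first. S100a11 (chr3:93520488-93526287) and S100a10 (chr3:93555080-93564643) follow 2824.77 kb further on. S100a8 and S100a9 are 22.597 kb apart and point towards each other, and 6.837 kb separate S100a4 from S100a6. S100a4 and S100a8, with only S100a6 of these 8 genes between them, were counted mostly in different cell types of blood, as the levels below show.

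Promoters of 7 of the 8 genes matched a RefSeq table (GRCm38.p6), S100a10 being the exception. Those of S100a8 and S100a9, the pair with the strongest contrast between groups, and of S100a4 are shown 5′ to 3′ on the gene's strand, from 250 bases before the start to 50 after it. Between neutrophil-like and monocyte-like cells of blood, S100a4 had the opposite order to the pair. Capitals mark matches to TATAAA (a core promoter box) in S100a8, S100a9 and S100a4, to GAGGAAGT on the other strand (PU.1) in S100a8 and S100a4, and to TTGCNNAA (C/EBP) in S100a9.
S100a8, chr3:90668821-90669120, plus strand: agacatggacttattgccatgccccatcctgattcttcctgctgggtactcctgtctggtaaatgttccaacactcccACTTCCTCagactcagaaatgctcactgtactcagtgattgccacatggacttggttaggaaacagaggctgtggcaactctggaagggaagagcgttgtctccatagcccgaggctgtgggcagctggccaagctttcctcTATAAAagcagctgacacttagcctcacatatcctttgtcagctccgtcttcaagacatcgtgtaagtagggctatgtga
S100a9, chr3:90695672-90695971, minus strand: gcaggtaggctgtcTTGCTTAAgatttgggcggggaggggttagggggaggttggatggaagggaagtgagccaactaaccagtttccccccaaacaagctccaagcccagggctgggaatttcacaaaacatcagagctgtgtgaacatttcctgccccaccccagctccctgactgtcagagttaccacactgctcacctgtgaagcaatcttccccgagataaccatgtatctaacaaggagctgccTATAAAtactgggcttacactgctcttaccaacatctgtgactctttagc
S100a4, chr3:90603520-90603819, plus strand: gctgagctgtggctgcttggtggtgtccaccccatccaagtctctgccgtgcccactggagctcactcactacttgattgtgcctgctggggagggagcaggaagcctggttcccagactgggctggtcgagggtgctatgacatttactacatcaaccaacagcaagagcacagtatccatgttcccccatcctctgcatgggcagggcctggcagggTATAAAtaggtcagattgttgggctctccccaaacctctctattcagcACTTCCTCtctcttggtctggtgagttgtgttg

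Each motif was searched on both strands, together with TGANTCA (AP-1). Among all 32851 promoter windows of this length, 13.6% held TATAAA, 10.8% TTGCNNAA, 7.81% TGANTCA and 3.20% GAGGAAGT. Counted from the start site, the TATA match began at base -30 of S100a8, at base -31 of S100a4 and at base 1 of S100a9. The PU.1 match lay at -172 in S100a8 and at 18 in S100a4, and the C/EBP match at -236 in S100a9. S100a11 held TGANTCA at -136 and -38, and the windows of S100a1, S100a6 and S100a13 held none of the 4 motifs. These are matches of letters, not measured sites.

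S100a8 and S100a9 were the most abundant S100 transcripts of the blood groups and were low in the tumor groups. In UMIs per 1000000 gene UMIs (CPM), S100a8 stood at 29328 (WT) and 42969 (cKO) in blood without IR, and at 27094 and 27958 in blood with IR. In the tumor it stood at 84.3 and 80.0 in control and at 585.0 and 407.4 after IR, again WT before cKO. S100a9, its partner in calprotectin, reached 35836 (WT) and 51942 (cKO) CPM in control blood and 38858 and 41036 after IR. In tumors it stood at 94.0 and 124.6 CPM without IR and at 994.4 and 621.9 with it. Every blood group was above every tumor group for both genes, and both tumor IR groups were above both tumor control groups. The pair made up 6.52%, 9.49%, 6.60% and 6.90% of all gene UMIs in the blood groups, in the order above, and 0.0178%, 0.0205%, 0.158% and 0.103% in the tumor groups.

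The other members varied far less between groups. S100a6, a calcium sensor linked to cell growth, ranged from 3757 to 4203 CPM in the tumor and from 5236 to 6133 in blood. S100a11 ranged from 1443 to 2271 CPM in the tumor and from 4197 to 4746 in blood, so that for both genes all blood groups lay above all tumor groups. S100a10 had the opposite order, with 2039 to 2280 CPM in the tumor and 654 to 934 in blood. S100a4, known for its part in cell motility, overlapped between tissues, with 2074 to 2893 CPM in the tumor and 1807 to 2172 in blood. S100a13 (171 to 217 CPM) and S100a1 (31.6 to 85.1 CPM) were the lowest members. Of the 9 further S100 genes, S100a16 reached 4.6 to 8.7 CPM in the tumor groups, S100g had no UMI in any group, and the rest stayed at or below 1.7 CPM.

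**Figure D1:**
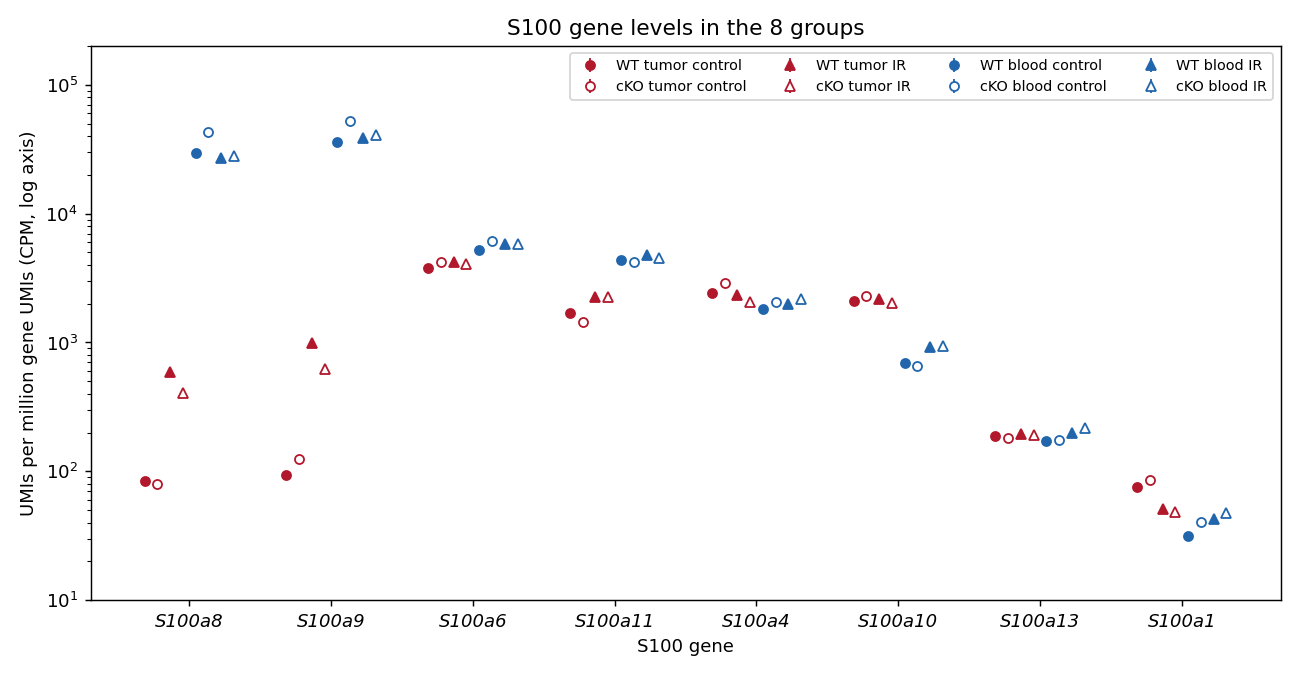
Level of each of the 8 S100 genes in the 8 groups, in CPM on a log axis, with 1 point per group and 95% Poisson intervals that are mostly smaller than the points. S100a8 and S100a9 span from about 80 CPM in the tumor control groups to 27094 or more in the blood groups, while the other 6 genes stay within a much narrower band.

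Cells were grouped into 21 clusters without using any S100 gene, and clusters were named from marker lists. In the sort for Ly6Chi cells, 69.6% of cells labelled WT and 68.1% of cells labelled cKO in blood control were neutrophil-like, and 74.2% and 74.4% in blood IR. Neutrophil-like cells made up 0.7% and 1.4% of the tumor control groups and 10.1% and 6.3% of the tumor IR groups. Monocyte-like cells numbered 913 (WT) and 826 (cKO) in control blood and 846 and 769 after IR. The tumor groups held mainly macrophage-like cells and clusters left without a name, among them cluster 0 (led by Cxcl10) and cluster 4 (led by Ifit2 and Rsad2), and tumor control also held 369 fibroblast-like cells.

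In blood, S100a8 and S100a9 UMIs came almost wholly from neutrophil-like cells. In blood control these cells held 97.8% of S100a8 UMIs and in blood IR 97.6%, at 86492 and 67712 CPM. In the tumor their part was smaller, 68.8% in control and 81.0% after IR, and macrophage-like cells held 23.2% and 10.4%. Monocyte-like cells of the same libraries stood at 428 and 521 CPM of S100a8. Barcodes with under 100 UMIs, which hold mostly free RNA, had 22140 and 20581 CPM, and NK cell-like cells, which should lack the gene, had 568 and 175. The control value leans on the largest NK cell-like cell labelled WT, which held 268 of the 449 S100a8 UMIs of its group. After thinning every cell to 1000 UMIs, 98.7% to 99.4% of blood neutrophil-like cells kept a S100a8 UMI, against 15.6% to 17.3% of monocyte-like and 18.3% to 21.8% of NK cell-like cells. The share in monocyte-like cells was thus not above that of NK cell-like cells. Thinning cannot decide whether it is expression, because monocyte-like cells held more UMIs, a median of 10977.5 against 2991 over all libraries. Free RNA can be a smaller part of a deeper cell, and expression of S100a8 in monocyte-like cells was not settled. Monocyte-like cells had 0.894 and 0.899 S100a8 UMIs per S100a9 UMI, where the barcodes with under 100 UMIs had 0.674 and 0.580, and the part of free RNA in their level was not tested.

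The remaining members divided between neutrophils and monocytes. S100a4 was nearly missing from blood neutrophil-like cells, at 21.2 CPM in control and 20.1 after IR, while monocyte-like cells had 3716 and 3682 CPM. At 1000 UMIs per cell, 95.7% to 96.7% of monocyte-like cells and 1.5% to 2.6% of neutrophil-like cells of blood had a S100a4 UMI. S100a10 had the same order, with 11.6 and 10.7 CPM in neutrophil-like and 1228 and 1588 CPM in monocyte-like cells. S100a1 (3.4 and 3.9 against 67.6 and 78.0 CPM) and S100a13 (66.1 and 78.9 against 254.0 and 294.2 CPM) were also lower in neutrophil-like cells. S100a6 and S100a11 were higher there, S100a6 at 8284 and 8345 against 4388 and 4397 CPM and S100a11 at 8536 and 9148 against 1482 and 1781 CPM.

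Other cell types had S100 levels of their own. Nonclassical monocyte-like cells of blood, which patrol the vessel wall, held 2119 CPM of S100a4 in control and 2224 after IR, but only 277 and 342 of S100a10. NK cell-like cells of blood held 1665 and 1784 CPM of S100a10 with only 142 and 127 of S100a4, and had the highest S100a13 of the blood classes with at least 50 cells, at 461 and 489 CPM. In tumor control, fibroblast-like cells, which are not CD45+ cells and stand outside the sort's intended population, had the highest S100a6 (6965 CPM), S100a4 (4594 CPM) and S100a10 (3687 CPM) of that library. They supplied 42.2% of its S100a6 UMIs, 41.6% of its S100a4 UMIs and 40.6% of its S100a10 UMIs.

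**Figure D2:**
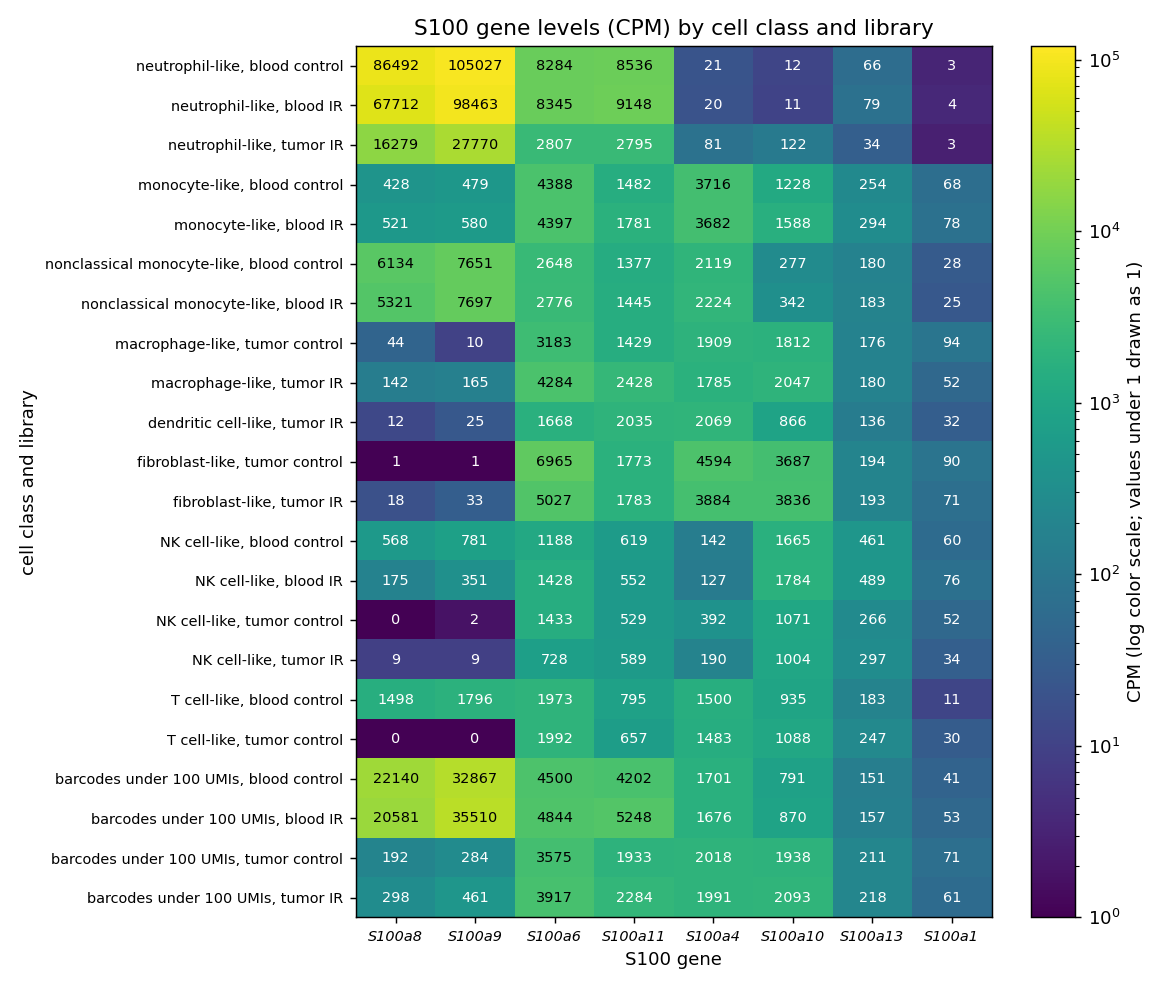
Level of each S100 gene (columns) in named cell types of each library and in barcodes with under 100 UMIs (rows), in CPM, printed in each square and coloured on a log scale. Neutrophil-like cells of blood are high in S100a8, S100a9, S100a6 and S100a11 and low in S100a4, S100a10 and S100a1. Those of tumor IR hold less S100a8, S100a9, S100a6 and S100a11 than those of blood. Blood monocyte-like cells hold 3716 and 3682 CPM of S100a4 where blood neutrophil-like cells hold 21.2 and 20.1.

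The neutrophil-like clusters of blood differed among themselves in the calprotectin pair. Cluster 19, led by Ltf, Ngp and Camp, genes of the secondary granules made in immature neutrophils, had 191824 CPM of S100a8 in blood control. Cluster 15, led by Retnlg and Ly6g, had 126617 CPM in blood control and 98501 after IR. Cluster 16 (Cxcr2 and Lrg1) had 76533 and 69701, the interferon-gene cluster 18 had 66234 and 63902, and cluster 17 (Slc40a1 and Csf1) had the lowest S100a8 at 44970 and 33941. S100a11 was nearly level between clusters 15 to 18, between 7812 and 9808 CPM over their groups, but 5621 CPM in cluster 19 of blood control labelled cKO. S100a6 ran from 5243 to 5912 CPM in cluster 17 up to 10556 to 11344 CPM in cluster 15.

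The first comparison asked how the S100 genes stood after IR. Treatment and library go together within each tissue, so IR and library cannot be told apart. In the tumor, S100a8 and S100a9 were higher after IR in both genotypes and no other member moved past 1 log2 unit. For WT tumors the IR to control ratio on the log2 scale was 2.79 (interval 2.72 to 2.87) for S100a8 and 3.40 (3.34 to 3.47) for S100a9. For cKO tumors it was 2.35 (2.28 to 2.42) and 2.32 (2.26 to 2.38). These 2 of 8 members compare with 6.07% of all genes past the limit in cells labelled WT and 21.8% in cells labelled cKO. S100a11 was higher by log2 ratios of 0.42 (WT) and 0.65 (cKO), and S100a1 lower by -0.57 and -0.82. S100a4 stood at -0.06 in cells labelled WT and -0.48 in cells labelled cKO. Fibroblast-like cells, which held 41.6% of S100a4 UMIs in tumor control, held 13.2% after IR, and numbered 116 (WT) and 253 (cKO) in control and 65 and 48 after IR.

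Without the barcodes shared between matrices, the IR ratios in the tumor moved for most members. What the shift owed to mixed UMIs and what to the choice of cells was not tested. The S100a8 ratio was 1.88 in cells labelled WT and 1.83 in cells labelled cKO, the S100a9 ratio 2.05 and 1.70, and the S100a11 ratio 0.98 and 1.22. S100a4 went to -0.70 and -0.57, S100a10 from 0.06 and -0.16 to -0.51 and -0.27, and S100a13 from 0.06 and 0.08 to -0.31 and -0.37. S100a6 stood at 0.17 (WT) and 0.55 (cKO), where all cells gave 0.16 and -0.05, and S100a1 at -0.57 and -0.87. Over all alternatives, a cell type taken alone included, the S100a8 ratio ran from 1.25 to 3.11 (WT) and from 1.83 to 2.56 (cKO). The S100a9 ratio ran from 2.05 to 4.54 and from 1.70 to 3.85. An alternative asked 4 times the other hashtag of WT cells too. It left 982 of 2460 WT cells in tumor control and 2378 of 3042 in tumor IR.

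In the same tumor groups the share of neutrophil-like cells was higher after IR, as given above, and fewer cells of a type and less RNA per cell cannot be told apart in sums over all cells. The mix was reckoned as each cluster's share of the UMIs of a group, and a cluster without cells in a group took the other group's level. When only this mix was taken from IR and each cluster kept its control level, the S100a8 ratio was 3.38 for WT and 2.36 for cKO. When only the levels were taken from IR and the mix kept from control, it was 1.03 and 0.56. For S100a9 the mix alone gave 3.95 and 2.60 and the levels alone 1.45 and 0.53. For S100a4 in cells labelled cKO the mix alone gave -0.37 and the levels alone -0.20. The control level of the neutrophil-like clusters in this reckoning rests on 16 and 29 cells in all. That of cluster 13, which held nearly all neutrophil-like cells of tumor IR, rests on 40 cells over both genotypes.

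In blood no member passed 1 log2 unit after IR, against 1.33% of all genes in cells labelled WT and 1.39% in cells labelled cKO. S100a8 changed by -0.11 (WT) and -0.62 (cKO) and S100a9 by 0.12 and -0.34. S100a10 was higher after IR in both genotypes, by 0.39 and 0.51, and S100a13 by 0.20 and 0.31. Within monocyte-like cells, which held 77.4% of S100a10 UMIs in blood control and 83.6% in blood IR, S100a10 was higher after IR by 0.44 (0.40 to 0.47) in cells labelled WT and 0.30 (0.26 to 0.33) in cells labelled cKO. S100a11 was higher in these cells by 0.29 and 0.24, and S100a4 and S100a6 stayed between -0.07 and 0.06. No member passed the limit in monocyte-like cells, where 0.655% and 0.764% of genes did, nor in blood neutrophil-like cells, where 0.656% and 2.6% did.

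**Figure D3:**
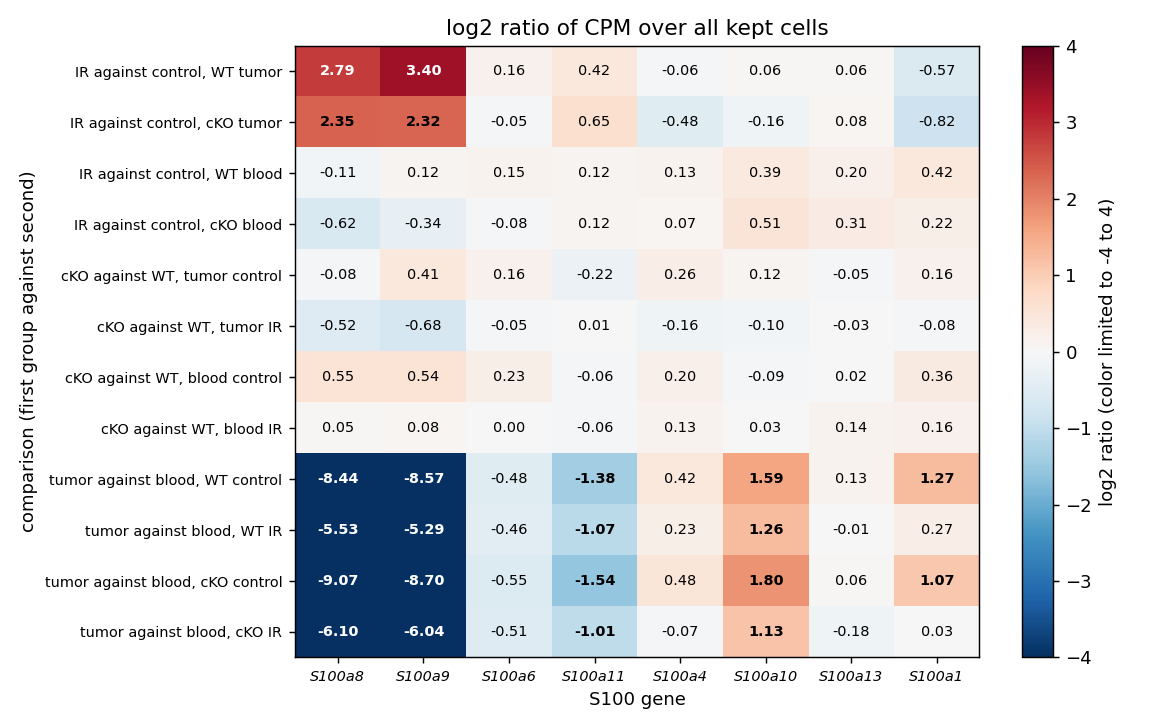
Log2 ratio of CPM over all kept cells for each S100 gene (columns) in the 12 comparisons (rows), printed in each square, in bold at 1 log2 unit or more either way, and coloured from blue (lower in the first group) to red (higher), with the color limited to 4 units. S100a8 and S100a9 are above 2 in both rows of tumor IR against control and below -5 in all 4 rows of tumor against blood, and no square of cKO against WT reaches 1.

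The second comparison asked how cells labelled cKO differed from cells labelled WT. Over all cells no member passed 1 log2 unit in any library, against 4.69% of genes in control tumors, 0.977% in irradiated tumors, 2.25% in control blood and 0.651% in blood after IR. The labels rest on a rule with a margin on one side, since a cell was called WT at any excess of B0301 and cKO only at 4 times the other hashtag. With that margin on both sides WT cells of tumor control fell from 2460 to 982 and S100a9 passed the limit there, at 1.63. The largest member ratios were those of the calprotectin pair. In blood control cells labelled cKO were higher by 0.55 for S100a8 and 0.54 for S100a9, and in tumor IR they were lower, with ratios of -0.52 and -0.68. In tumor control S100a8 stood at -0.08 (-0.17 to 0.02) and S100a9 at 0.41, and in blood IR all 8 members lay between -0.06 and 0.16. S100a4 was higher in cells labelled cKO of blood control (0.20), blood IR (0.13) and tumor control (0.26) and lower in tumor IR (-0.16). Without the shared barcodes the tumor control ratios turned to -0.30 for S100a4 and -0.08 for S100a9, with S100a8 at -0.23 and S100a6 at -0.32, and in tumor IR S100a8 stood at -0.27, S100a9 at -0.43, S100a4 at -0.17 and S100a1 at -0.62.

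Within the neutrophil-like cells of blood control, S100a8 was higher in cells labelled cKO by 0.59, S100a9 by 0.58 and S100a6 by 0.32, while S100a11 stood at -0.06. No member passed the limit there, against 3.75% of genes. A neutrophil-like cell gave a median of 6.28% of its UMIs to S100a8 in cells labelled WT and 8.57% in cells labelled cKO, and 7.72% and 11.3% to S100a9. After IR the medians were 5.58% and 6.30% for S100a8 and 8.22% and 9.58% for S100a9, with ratios of 0.14 and 0.18 and again no member past the limit (0.413% of genes). The genotypes also differed in the clusters these cells fell into. Cluster 15 took up 10.4% of the WT and 35.3% of the cKO neutrophil-like cells in control blood, cluster 17 took up 39.4% and 19.9%, and cluster 19 took up 0.419% and 4.44%. Over all blood control cells, taking only the mix of clusters from cells labelled cKO gave 0.46 for S100a8 and taking only the levels gave -0.00, with 0.44 and 0.06 for S100a9. Cluster by cluster, S100a8 stood at 110089 CPM (WT) and 132454 (cKO) in cluster 15, at 76617 and 76392 in cluster 16 and at 46553 and 40337 in cluster 17. Clustering leaves out the S100 genes but uses genes that vary with them, so the clusters are not independent of the level.

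In tumor IR the neutrophil-like cells labelled cKO and WT were close for the pair, with 17515 and 15372 CPM of S100a8 (0.19, interval 0.15 to 0.23) and a S100a9 ratio of 0.03 (-0.00 to 0.06). No member passed the limit, against 0.515% of genes. Their share of cells was 10.1% (WT) and 6.3% (cKO). The mix of clusters by UMIs alone gave -0.47 for S100a8 and -0.52 for S100a9 over all tumor IR cells, with the levels alone giving 0.08 and -0.05. Without the shared barcodes the ratios in these neutrophil-like cells were 0.19 for S100a8 and 0.05 for S100a9.

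Monocyte-like cells of blood had no member past the limit between the genotypes, against 0.545% of genes in control and 0.305% after IR. The members' ratios ran from -0.19 to 0.34 in blood control and from -0.14 to 0.29 after IR. S100a4, which neutrophil-like cells nearly lacked, stood at 3541 CPM in cells labelled WT and 3913 in cells labelled cKO of blood control.

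In nonclassical monocyte-like cells of blood control the pair was lower in cells labelled cKO. S100a8 stood at 10059 CPM in 137 cells labelled WT and 3928 in 240 cells labelled cKO, a log2 ratio of -1.36, and S100a9 had a ratio of -1.25. S100a1 was higher by 1.07 (0.39 to 1.87), making 3 members past the limit against 1.51% of genes. The calls depended on the labels and the clustering. With the hashtag margin on both sides 1 member passed, S100a8 at -1.04 with S100a9 at -0.86, and by the larger hashtag 1 member, S100a1 at 1.05, with the pair at -0.61 and -0.54. At Leiden resolution 1.5 none did, with the pair at -0.65 and -0.55 and S100a1 at 0.28. S100a8 was uneven over these cells, since 31.4% of those labelled WT and 12.9% of those labelled cKO gave it over 1% of their UMIs, while the median cell gave it 0.041% and 0.019%. The 15 neutrophil markers moved with it, with 13 and 14 detected and a summed 3414 CPM (WT) and 1648 CPM (cKO), Retnlg at 991 and 499, Csf3r at 504.6 and 313.5, Ly6g at 7.0 and 6.6 and Ltf at 0, and their part in the result was not tested. After IR the ratios were -0.71 and -0.73 with no member past the limit (0.578% of genes). Leaving out the 5 cells with the most UMIs in each group took them to -1.84 and -1.70 and Leiden resolution 1.5 to -1.01 and -1.21, past the limit, while the larger hashtag gave 0.17 and 0.20. No member passed the limit between IR and control in cells labelled WT (1.06% of genes) or cKO (0.793%).

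Macrophage-like cells of the tumor had little of the pair. S100a8 stood at 74.6 CPM in cells labelled WT and 20.4 in cells labelled cKO of tumor control, and at 177.9 and 118.8 after IR. S100a9 stood at 11.04 and 9.56 in control and at 204.1 and 139.3 after IR. Both genes were past the limit between IR and control in cells labelled WT (1.25 and 4.19, against 3.7% of genes) and in cells labelled cKO (2.54 and 3.85, against 7.2%). The 192 and 298 CPM of S100a8 in barcodes with under 100 UMIs of tumor control and tumor IR were above every one of these levels. Without the shared barcodes too few macrophage-like cells remained for a ratio, the minimum being 50 cells a group.

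The UMIs sat in few of these cells. In tumor control 850 of 955 cells labelled WT had no S100a8 UMI and 5 cells held 73.0% of the S100a8 UMIs. The top 5 cells held less in the other groups, 22.1% in cells labelled cKO of tumor control and 27.1% (WT) and 36.6% (cKO) in tumor IR. Leaving out the 5 cells with the most UMIs of the gene in each group, the ratios of IR to control were 2.68 and 5.91 for WT and 2.24 and 4.97 for cKO. Between genotypes S100a8 was the 1 member past the limit in tumor control (-1.87, against 1.23% of genes), and without those cells its ratio was -0.34. After IR no member passed the limit (0.247% of genes). Of the 15 neutrophil markers 12 had UMIs in macrophage-like cells, summing to 596 and 413 CPM in control and 805 and 723 after IR, WT before cKO, with Ly6g, Ngp and Camp at 0 in all 4 groups, and their part in the result was not tested. The largest part of macrophage-like cells came from cluster 2 in control (43.6% WT, 51.8% cKO) and from cluster 1 after IR (69.4%, 64.8%).

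Members with a firm level in macrophage-like cells moved less. S100a11 was higher after IR by 0.56 (0.53 to 0.59) in cells labelled WT and 0.95 (0.92 to 0.99) in cells labelled cKO, and S100a6 by 0.36 and 0.49. S100a1 was lower by -0.71 and -0.93. S100a4 stood at 0.04 and -0.19 and S100a10 at 0.13 and 0.22.

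The third comparison set tumor against blood. In control animals S100a8 was lower in the tumor by log2 ratios of -8.44 (WT) and -9.07 (cKO) and S100a9 by -8.57 and -8.70. After IR the distance was smaller, at -5.53 and -6.10 for S100a8 and -5.29 and -6.04 for S100a9. S100a11 was lower in all 4 comparisons, between -1.54 and -1.01, and S100a10 higher, between 1.13 and 1.80. S100a1 was past the limit in control only (1.27 and 1.07). In all, 5 members passed the limit in each control comparison, against 36% (WT) and 44% (cKO) of genes, and 4 in each IR comparison, against 33% and 32.6%. Tissue and library go together here. Without barcodes shared between matrices, which leaves few tumor cells, S100a8 stood between -4.98 and -2.20 and S100a9 between -4.42 and -1.87, S100a10 at 0.35 and 0.38 in control and -0.55 and -0.41 after IR, and S100a4 at -0.48, -1.31, -0.98 and -1.62 (WT control, WT IR, cKO control, cKO IR) where all cells gave 0.42, 0.23, 0.48 and -0.07. In the same order S100a6 stood at -1.21, -1.19, -1.76 and -1.13, past the limit, where all cells gave -0.48, -0.46, -0.55 and -0.51, and S100a1 at 0.69, -0.35, -0.0045 and -1.20.

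Among neutrophil-like cells after IR the tissues could be compared within 1 cell type. Nearly all tumor cells of this type fell in cluster 13 (97.4% WT, 99.1% cKO), led by Ccl3 and G0s2, and nearly all blood cells in clusters 15 to 18. S100a8 was lower in the tumor, at 15372 against 64791 CPM in cells labelled WT (-2.08) and 17515 against 71325 in cells labelled cKO (-2.03). S100a9 (-1.76 and -1.90), S100a6 (-1.70 and -1.41) and S100a11 (-1.75 and -1.66) were lower as well. S100a10 was higher, at 104.6 against 11.1 CPM (3.21) and 144.6 against 10.1 CPM (3.80), and S100a4 was higher by 1.59 and 2.48. With S100a13 (-2.01) in cells labelled cKO, 6 and 7 members passed the limit, against 58.2% and 54.5% of all genes. The median gene was itself lower in these tumor cells, by log2 ratios of -0.93 and -0.75, and by -0.58 and -0.57 with TMM scaling. Without the shared barcodes S100a4 was higher by 2.60 (WT) and 1.93 (cKO) and S100a10 by 3.74 and 4.28, with S100a8 at -2.17 and -2.12 and S100a9 at -1.84 and -1.96. S100a6 stood at -1.73 and -1.24, S100a11 at -1.61 and -1.38 and S100a13 at -0.67 and -2.95. In each genotype 6 members were past the limit, a count that takes only members with at least 100 UMIs.

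The levels of S100a10 and S100a4 in tumor neutrophil-like cells can be set against the free RNA around them. Barcodes with under 100 UMIs in tumor IR held 2093 CPM of S100a10 and 1991 CPM of S100a4, and those in blood IR held 869.7 and 1676 CPM. At 1000 UMIs per cell, 7.2% (WT) and 13.9% (cKO) of tumor neutrophil-like cells had a S100a10 UMI, against 1.1% to 1.4% in blood. The part of free RNA in this difference was not tested.

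S100a8 was thinly spread in some tumor neutrophil-like cells. Of 306 cells labelled WT in tumor IR 36 had no S100a8 UMI, and of 231 labelled cKO 31 had none. In blood IR 23 of 3385 and 16 of 2810 had none, and in blood control 7 of 3343 and 7 of 2611. The median cell gave S100a8 0.935% (WT) and 1.06% (cKO) of its UMIs in tumor IR. At 1000 UMIs per cell, 84.6% and 83.5% of tumor IR neutrophil-like cells had a S100a8 UMI.

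**Figure D4:**
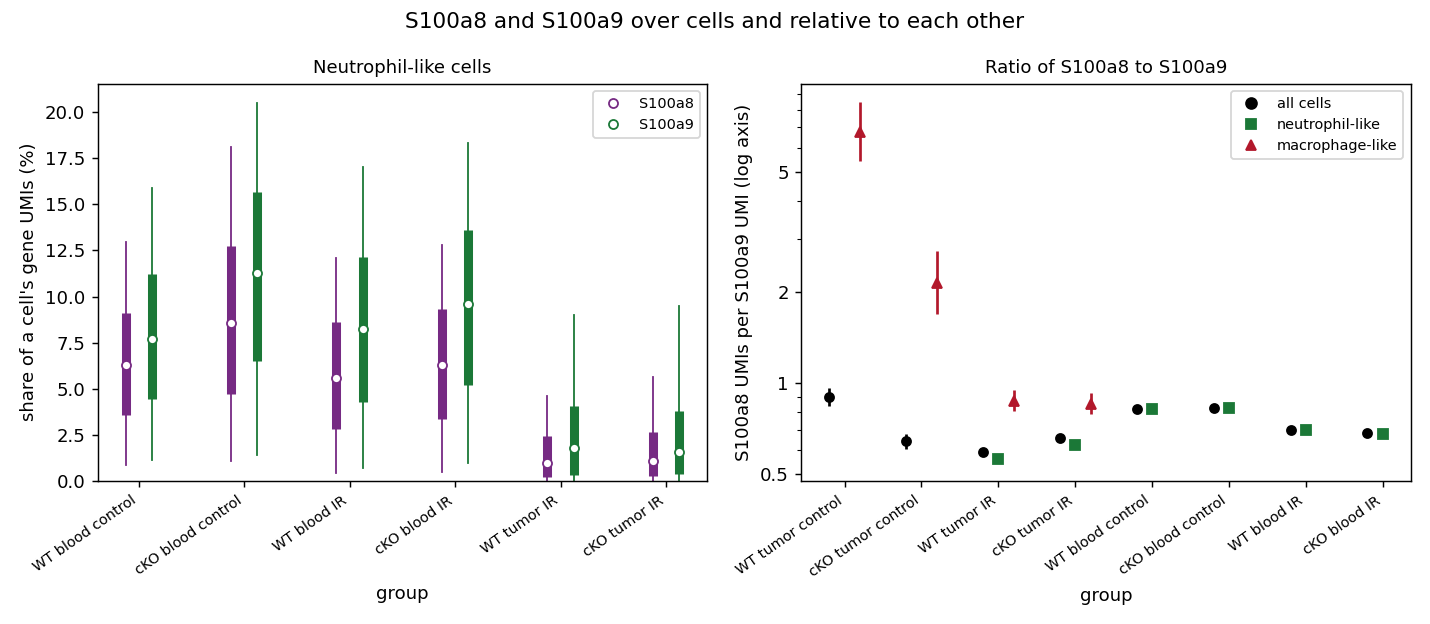
Left, percent of a neutrophil-like cell's UMIs that were S100a8 or S100a9 in the 6 groups with at least 50 such cells, with the median as a point, the middle 50% of cells as a thick bar and the 5th to 95th percentile as a thin line. Right, ratio of S100a8 to S100a9 UMIs on a log axis with 95% counting intervals, over all cells (circles), neutrophil-like cells (squares) and macrophage-like cells (triangles) of each group. Medians in tumor IR are 0.935% and 1.06% for S100a8 where those of the blood groups are 5.58% or more, and the ratio is lower after IR than in control in blood neutrophil-like cells.

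The UMI ratio of the 2 subunits of calprotectin was close between genotypes in neutrophil-like cells of blood and differed between libraries and cell types. In blood control neutrophil-like cells had 0.818 S100a8 UMIs per S100a9 UMI (WT) and 0.828 (cKO), and in blood IR 0.696 and 0.679. In tumor IR the genotypes lay further apart, at 0.558 (0.545 to 0.572) in cells labelled WT and 0.623 (0.606 to 0.641) in cells labelled cKO. In blood neutrophil-like cells the ratio thus differed more between control and IR than between genotypes. Among neutrophil-like clusters it ran from 0.781 (cluster 18) to 0.939 (cluster 19) in blood control and from 0.667 to 0.737, in the same clusters, after IR. Over both genotypes of tumor control it was 0.552 in neutrophil-like cells, 1.70 in cluster 0 and 4.29 in macrophage-like cells. Barcodes with under 100 UMIs of the blood libraries had 0.674 without IR and 0.580 with IR, the same order. In macrophage-like cells of tumor control the ratio was 6.76 (5.42 to 8.52) in cells labelled WT and 2.13 (1.68 to 2.72) in cells labelled cKO, where S100a8 had UMIs in more cells than S100a9, and 0.871 and 0.853 after IR. Monocyte-like cells lay between 0.774 and 1.05.

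The genes of the pathway around the S100 proteins were counted from fixed lists. Of 7 receptors and receptor partners, Tlr4 (1.13), Cd36 (1.13) and Myd88 (1.05), the adaptor of Tlr4, were past the limit and higher after IR in tumor cells labelled cKO, where 21.8% of all genes passed it, and none was in tumor cells labelled WT, where 6.07% did. In cells labelled WT these 3 stood at 0.84, 0.79 and 0.56. In blood cells labelled cKO, Cd14 (-1.21) and Cd36, a lipid receptor (-2.03), were lower after IR, against 1.39% of genes, and Cd36 was also lower in cells labelled cKO than in cells labelled WT of blood IR (-1.05, against 0.651%). Cd14, which hands ligands to Tlr4, was higher in tumor than in blood by 2.91 to 4.53, and Bsg, a S100a9-binding membrane protein, by 1.44 to 1.77, in comparisons where 32.6% to 44% of genes passed the limit. Of 6 transcription factors, Cebpe, needed for granulocyte maturation, was past the limit and higher after IR in the tumor of both genotypes (2.19 and 2.09), and the other 5 were not, against the same 6.07% (WT) and 21.8% (cKO) of genes. Cebpd (-3.79 to -3.02) and Spi1, which encodes PU.1 (-2.01 to -1.21), were lower in tumor than in blood and Klf4, a factor of monocytes, was higher (1.61 to 1.76), in all 4 comparisons, against the 32.6% to 44% of genes just given. Of 5 intracellular partners, Anxa1 was lower after IR in tumor cells labelled cKO (-1.04, against 21.8% of genes), and none of the others passed the limit for IR over all cells.

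Some partners moved within neutrophil-like cells. Ahnak, a large scaffold bound by S100a10 with Anxa2, stood at 25.2 CPM in cells labelled WT and 146.1 in cells labelled cKO of control blood (2.53, against 3.75% of genes past the limit), and at 23.3 CPM in cells labelled cKO after IR (-2.64, against 2.6%). Between tumor and blood after IR, Cd14 (4.82 WT, 5.16 cKO), Tlr4 (2.31, 1.97) and Bsg (2.14, 2.26) were higher in tumor neutrophil-like cells. Anxa1 (-3.29, -3.57), Anxa2 (-1.51, -1.31) and Myh9, the non-muscle myosin bound by S100a4 (-1.78, -1.59), were lower there, where 58.2% (WT) and 54.5% (cKO) of genes passed the limit. Among the factors Cebpb was higher (1.41, 1.77) and Cebpd (-3.02, -3.25) and Spi1 (-1.58, -1.27) lower. Over the lists the median log2 ratio after IR in the tumor was 0.46 (WT) and 0.77 (cKO) for receptors and 0.10 and 0.11 for transcription factors, where that of all genes was -0.13 and -0.18 and that of the 8 members 0.11 and 0.02.

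Over 48 sums of a cell type in a group, each of at least 50 cells, the log2(CPM + 1) of S100a8 went most closely with S100a9 (Pearson r 0.97), Wfdc21 (0.96), Retnlg (0.95), Lcn2 (0.93) and Lrg1 (0.93), out of 12439 genes. S100a9 had S100a8, Retnlg (0.94), Wfdc21 (0.94), Stfa2l1 (0.92) and Mmp9 (0.91). S100a4 went with Anxa5 (0.96), Prdx2, Psmd8, Cd2ap and Scpep1, and S100a10 with Pfdn1, Psmb6 and Lgals1 (0.96 each), Yif1b and Mydgf. S100a11 went with Atp6v1g1 (0.93) and S100a6 (0.85), S100a6 with Eif4ebp1 (0.85) and S100a11, S100a13 with Tmem208 (0.94), and S100a1 with Atp5g3 (0.93), Atp5a1, Ndufc1, Rex1bd and Ndufa10. Between members, S100a10 and S100a1 had r 0.88, S100a10 and S100a4 0.75, and S100a8 and S100a10 -0.77. These sums share libraries, so the correlations describe this data set only.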

How the data were processed

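Raw UMI counts per gene and barcode were deposited by the authors. Per the labels the libraries used 10x 3′ chemistry, and the submitters' processing notes name mm10, Cell Ranger 6.0.1 and Seurat 4.0.6. Counts were not normalized. Barcodes with at least 1000 UMIs, 200 genes, at most 25% mitochondrial UMIs and 20 hashtag UMIs were kept (WT where B0301 was at least B0302, cKO where B0302 was at least 4 times B0301), and 6% per library were removed as doublets with Scrublet. The 28243 cells were clustered (scanpy 1.11.5, Leiden resolution 1, 2000 variable genes) without S100 genes, lysozyme genes and Ythdf2. Naming thresholds were set after the data were seen: 3 markers at 2-fold and in 25% of cells, in each tissue supplying 20% of a cluster. UMIs were summed per group and class and divided by gene UMIs (CPM), with Poisson intervals. Ratios had 1 UMI added, with binomial intervals. A gene was past the limit at 1 log2 unit with at least 100 UMIs in both groups together. A UMI marks 1 transcript end, so CPM were not divided by length. All 8 members were named, with fixed lists of partners and the 5 genes most correlated with each. Members and lists were chosen with earlier results of these data known. The scripts were tested on simulated data. The alternatives tried included edgeR 4.0.16 TMM scaling, other cell, hashtag and doublet filters, other cluster resolutions, and leaving out shared barcodes.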

Additional observations from a re-analysis of the deposited data

Results flagged for a closer look

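A few differences stood apart because a member was higher after IR in the tumor and lower after IR in blood. For S100a8 in cells labelled WT the IR to control log2 ratio was 2.79 in the tumor and -0.11 in blood, a difference of 2.91. For S100a8 in cells labelled cKO it was 2.35 and -0.62, a difference of 2.97. For S100a9 in cells labelled cKO it was 2.32 and -0.34, a difference of 2.66. S100a9 in cells labelled WT was higher after IR in both tissues, at 3.40 and 0.12. Over the alternatives, which included a cell type taken alone, the blood ratio of S100a8 ran from -0.14 to 0.13 in cells labelled WT. In cells labelled cKO it ran from -0.67 to 0.43 for S100a8 and from -0.39 to 0.30 for S100a9. Without the shared barcodes the 3 tumor ratios were 1.88, 1.83 and 1.70. With 1 pool per group none of these differences was tested.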

How the results depend on the processing

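No paired analysis was possible because each group is 1 pool and the labels carry no replicate numbers. Leaving out replicates could not be done for the same reason. Of the counts of members past the limit, 383 alternatives gave the same count within 1.5 times and 18 did not. Of the single ratios, 2501 moved by no more than their interval and 704 moved further. The other 3 were past the limit over all cells and changed sign. Ratios within the limit also changed sign among the 704, such as S100a4 in tumor against blood of WT control (0.42 to -0.48). A margin on both hashtags gave 1 member past the limit for cKO against WT in tumor control, where macrophage-like cells alone also gave 1, and 1 in nonclassical monocyte-like cells of blood control. Assigning cells by the larger hashtag gave 1 for cKO against WT in neutrophil-like cells of tumor IR and 1 in nonclassical monocyte-like cells of blood control. Without Scrublet removal there was 1 in neutrophil-like cells of tumor IR, 2 in macrophage-like cells of tumor control and 2 for IR against control in monocyte-like cells labelled cKO, and a minimum of 20 UMIs gave 1 in neutrophil-like cells of tumor IR. Leiden resolution 1.5 gave 2 for IR in monocyte-like cells labelled WT, S100a8 at 2.02 and S100a9 at 1.82. For cKO against WT it gave 1 in monocyte-like cells of blood control (S100a8 at 1.86) and 1 in those of blood IR (S100a9 at -1.15). It gave 0 in nonclassical monocyte-like cells of blood control and 2 in those of blood IR. Leaving out the 5 cells with the most UMIs, an alternative chosen after seeing the data, gave 2 in nonclassical monocyte-like cells of blood IR for cKO against WT, 1 for IR in those labelled cKO, and 0 for cKO against WT in macrophage-like cells of tumor control. Neutrophil-like cells alone gave 7 members for tumor against blood in cells labelled cKO after IR, against 54.5% of genes, and macrophage-like cells alone gave their 1 against 1.23%. For the other alternatives named here the share of all genes past the limit is not given, so their counts have no background beside them. Without barcodes of more than 1 matrix the tumor to blood ratio of S100a10 reversed to -0.55 (WT) and -0.41 (cKO) after IR and that of S100a1 to -0.0045 in cells labelled cKO of the control. The causes were not tested. S100a8 and S100a9 stayed past the limit for IR in the tumor under every alternative run for all cells. Depth limits S100a1 in neutrophil-like cells, with under 100 UMIs in each comparison.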
